A study of Arabidopsis thaliana with 18 samples.

Results

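RNA of leaf 5 of Arabidopsis thaliana was compared between a double and a quadruple TCP mutant, to measure in which genes the difference between leaf margin and leaf center itself depended on the genotype. The quantity reported is an interaction: the log2 margin to center difference in tcp2tcp3tcp4tcp10, called the quadruple mutant, minus the same difference in tcp2tcp4, called the double mutant. It was computed from 12 of the 18 libraries of the study, 3 for each of quadruple margin, quadruple center, double margin and double center. Both mutants carry the tcp2 and tcp4 mutations, so the groups differ by tcp3 and tcp10, and the other 6 libraries, margin and center of wild-type Col-0, entered the estimate of spread and are given for reference. Neither the alleles nor the number of lines behind each mutant is stated in the labels.

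Seedlings spent 5 days on plates before soil, at 23 °C in a day of 16 h light and a night of 8 h. Leaf 5 was taken as leaf 7 emerged, at Zeitgeber time 6 h, and was cut into margin and center. Each library pooled the pieces of 15 to 20 plants, and a margin and a center library of 1 genotype with the same number came from the same pool of leaves. Starts were staggered by 2 days between lines, with the quadruple mutant the earliest, so a difference of genotype cannot be told apart from one of plant age. Nor can fewer cells of a type be told apart from less RNA per cell in such pieces of tissue.

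TCP transcription factors of the CIN class restrain cell division in growing leaves, and their loss prolongs division near the leaf edge and gives crinkled or lobed leaves. A subgroup, TCP2, TCP3, TCP4, TCP10 and TCP24, carries a target site of the microRNA miR319, which directs cleavage of their mRNAs. Leaf cells stop dividing first at the tip and later toward the base, and files of elongated cells form along the margin.

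The mature miR319 sequences and their sites in the 5 TCP mRNAs are shown because the mutants differ within this group of genes. Sequences were read from RefSeq's TAIR10.1 genome and annotation. In the microRNAs the seed, bases 2 to 8, is in capitals, and miR319b has the same mature sequence as miR319a. In the sites, written as DNA of the coding strand, capitals mark bases that differ from the perfect complement of miR319a.
ath-miR319a, chr4:12353109-12353129, plus strand: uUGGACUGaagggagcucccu
ath-miR319c, chr2:17029870-17029890, plus strand: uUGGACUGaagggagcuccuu
TCP2, chr4:10163402-10163422, minus strand: CAggGgGAcccttcagtccaa
TCP3, chr1:19850522-19850542, minus strand: GAggGgTCcccttcagtccaT
TCP4, chr3:5063300-5063320, plus strand: GAggGgTCcccttcagtccaG
TCP10, chr2:13221210-13221230, minus strand: aAggGgTAcccttcagtccaG
TCP24, chr1:10628989-10629009, minus strand: TAggGgGAcccttcagtccaa
All 5 sites lie in coding exons. The bases opposite the seed are the same in all 5, and the sites differ from the complement at 5 bases in TCP2, TCP10 and TCP24 and at 6 in TCP3 and TCP4.

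The genes targeted in the mutants were checked first. TCP10 was at 9.98, 8.79 and 7.89 CPM (read counts scaled by library size) in the quadruple margin and 6.03, 4.15 and 4.79 in the quadruple center, against 81.9, 89 and 104 in the double margin and 62.7, 58.5 and 68.7 in the double center. Every quadruple library was below every double library in both pieces. TCP3 was at 0.316 to 0.641 CPM in the 6 quadruple libraries and at 2.08 to 3.5 in the 6 double libraries, again without overlap, though its reads cannot be told apart from those of the overlapping locus AT1G53233. TCP2 was at 6.65 to 11.7 CPM over both mutants and at 60.8 to 66.4 in Col-0, and TCP4 was at 13.1 to 25.1 against 73.2 to 115. Reads of TCP2 and TCP4 thus remained in both mutants, and the labels matched the levels of the targeted genes in all 18 libraries.

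None of these TCP genes was called in the interaction. TCP10 had an interaction of 0.33 ± 0.18 (SE; adjusted p = 0.404, edgeR's quasi-likelihood test), being higher in the margin than in the center in both mutants. TCP24, which is intact in both, was at 61.7, 65.1 and 72 CPM in the quadruple margin, 55, 53.6 and 54.6 in the quadruple center, 63.9, 65 and 58.4 in the double margin and 61.2, 64.1 and 56.9 in the double center. The quadruple center was the lowest group and the other 3 overlapped, and the interaction was 0.24 ± 0.1 (adjusted p = 0.25). TCP2 had -0.09 ± 0.16, TCP3 0.22 ± 0.62 and TCP4 -0.18 ± 0.17, none of them called. TCP5, TCP13 and TCP17, CIN-class genes without a miR319 site, had interactions of -0.03, -0.06 and -0.56 and none was called. Over both groups of TCP genes 1 of 8 had an unadjusted p under 0.05 (2758 of all 17763 loci did) and DESeq2 called 0. As a list the last 3 were higher in the margin in each genotype, with median log2 differences of 1.36 in the quadruple mutant, 1.39 in the double mutant and 1.22 in Col-0.

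Over all 17763 loci tested, 515 (2.9%) had an interaction with an adjusted p under 0.05. In 254 (1.43%) the quadruple mutant had the higher margin to center difference, called higher here, and in 261 (1.47%) the lower one, called lower. In 178 the interaction was at least 2-fold, 97 higher and 81 lower. The median over all loci tested was 0.0038, and the median SE was 0.167. An unadjusted p under 0.05 was reached by 2758 of the 17763 loci. With the leaf pool as a block the count was 2008 (11.3%), 817 (4.6%) higher and 1191 (6.7%) lower, and all 515 loci were among them with the same direction. The count rested in part on single libraries: it was 269 without quadruple center 2, 293 without double center 1, 326 without quadruple margin 3 and 331 without double margin 2. In the library double margin 3, 16.0% of reads aligned to several places, against 3.71% to 4.71% in the other 11, and without it 393 loci were called. Gene reads per library ranged from about 5933000 to 12020000.

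Loci with a higher interaction had, in the median, a margin to center difference of 0.87 in the quadruple mutant, 0.01 in the double mutant and -0.56 in Col-0. Of the 254, 239 were called higher in the margin of the quadruple mutant (12.1% of all loci were) and 15 in the margin of the double mutant (2.47% of all loci). In 21 the margin of the double mutant was called lower than its center (5.04% of all loci). Set out by compartment, quadruple against double, the median difference was 0.87 in the margin and -0.01 in the center, and 218 of 254 were called in the margin with no call in the center. Over all loci 25.8% were called in the margin and 7.93% in the center, 3.56% higher and 4.37% lower there. Among the 261 lower loci the median margin to center difference was -0.80 in the quadruple mutant and 0.18 in Col-0. Of these, 234 were called lower in the margin of the quadruple mutant (13.5% of all loci were). In the double mutant 54 were called lower in the margin (5.04% of all loci), 30 higher (2.47%) and 177 in neither direction. Quadruple against double, their median was -0.71 in the margin and 0.07 in the center, with 173 called in the margin alone. In 40 of them the center was called higher in the quadruple mutant, 22 of these without a call in the margin. These comparisons share libraries with the interaction, so the counts describe where the calls came from and test nothing further.

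**Figure D1:**
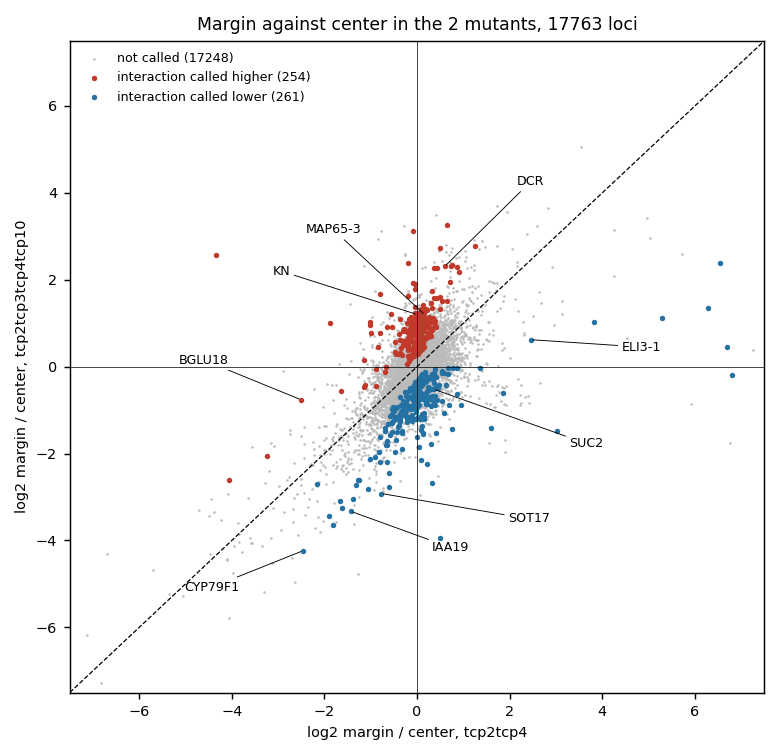
Log2 margin to center ratio in tcp2tcp4 (x axis) and in tcp2tcp3tcp4tcp10 (y axis), 1 point for each of 17763 loci, with the dashed line marking equal ratios. The 254 loci called higher lie above the line and mostly near 0 on the x axis, the 261 called lower lie below it, and 4 loci called lower have a log2 ratio above 6 in the double mutant and below it in the quadruple mutant.

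**Figure D2:**
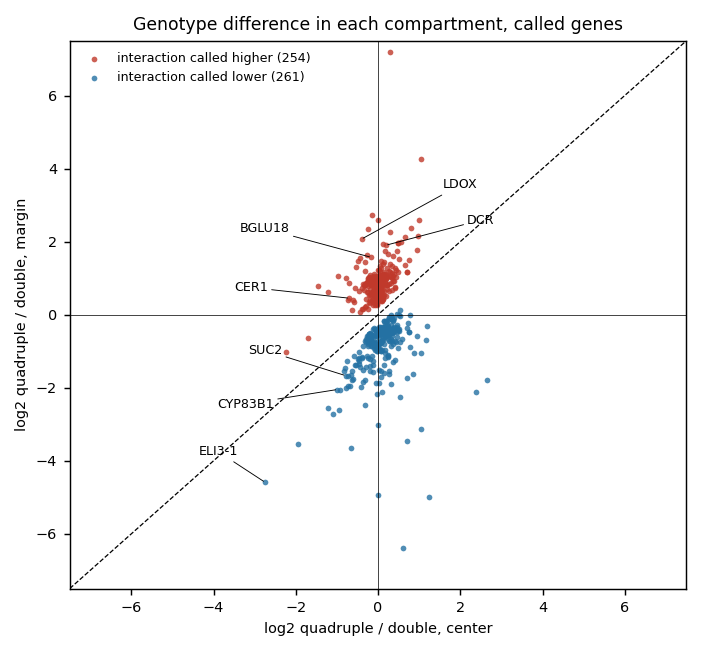
Log2 ratio of quadruple to double mutant in the center (x axis) and in the margin (y axis) for the 515 called loci, with the dashed line marking equal ratios. Most points lie along the vertical axis, with medians in the margin of 0.87 for loci called higher and -0.71 for those called lower.

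Among called loci whose highest mutant group mean reached 5 CPM and whose pools did not overlap between the mutants, the lowest interactions belonged to 4 loci without a gene symbol, which were picked out after their values were seen. They had high counts in the margin of Col-0 and of the double mutant and little in the quadruple margin. AT3G16670, annotated as a pollen Ole e 1 allergen and extensin family protein, a family of secreted, cell wall associated proteins, was at 177, 190 and 181 CPM in the double margin and 2.13, 1.99 and 1.06 in the double center. In the quadruple mutant it was at 2.11, 2.28 and 2.1 CPM in the margin and 4.76, 1.38 and 1.33 in the center. Double margin libraries thus stood apart from the other 9, and margin and center of the quadruple mutant overlapped. Col-0 had 438, 394 and 396 CPM in the margin and 4.71 to 5.58 in the center. The interaction was -6.98 ± 0.47 (adjusted p = 4.86e-08), made of a margin to center difference of 6.8 in the double and -0.19 in the quadruple mutant.

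A member of the same family that lies close by on chromosome 3, AT3G16660, was at 33.2, 35.8 and 39.7 CPM in the double margin and 3.57, 2.87 and 3.37 in the quadruple margin, with all 6 mutant center libraries between 0.166 and 1.16. Here the quadruple margin was still above its center, by 2.37, against 6.55 in the double mutant, and the interaction was -4.17 ± 0.57 (adjusted p = 0.000649). AT3G05730, a defensin-like protein, was at 315, 353 and 358 CPM in the double margin, 7.04, 3.31 and 3.29 in the double center, 9.62, 13 and 10.6 in the quadruple margin and 7.51, 3.01 and 2.66 in the quadruple center. The double margin lay far above all others, while the quadruple margin remained above its center, by 1.34 ± 0.26. Its interaction was -4.94 ± 0.40 (adjusted p = 4.63e-07). AT2G43590, a member of the chitinase family, enzymes that cut chitin of fungal walls, was at 38, 31.4 and 35.4 CPM in the double margin and at 0.166 to 1.52 in the other 9 mutant libraries. Its interaction was -6.24 ± 0.59 (adjusted p = 5.95e-06). All 4 were called in each of the 18 alternative analyses. How reads that fit both AT3G16670 and AT3G16660 were counted was not tested.

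The bases upstream of AT3G16670 and AT3G16660 are shown as the pair of relatives with like patterns. Those of IAA19, an auxin gene described further on, are shown because it was the only 1 of the 10 loci with the lowest interactions under these same conditions whose window held TGGNCC, the core of the motif bound by class II TCP proteins. Each is the 250 bases before the annotated gene start in TAIR10.1, read 5′ to 3′ on the gene's strand, and all 3 genes are on the plus strand. Capitals in IAA19 mark TGGNCC on either strand, here 2 overlapping matches, the first starting 29 bases before the gene.
AT3G16670, chr3:5681130-5681379: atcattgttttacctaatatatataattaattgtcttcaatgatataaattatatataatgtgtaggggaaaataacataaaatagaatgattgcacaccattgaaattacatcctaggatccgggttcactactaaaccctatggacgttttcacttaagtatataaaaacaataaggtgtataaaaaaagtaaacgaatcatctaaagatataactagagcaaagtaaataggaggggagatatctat
AT3G16660, chr3:5676499-5676748: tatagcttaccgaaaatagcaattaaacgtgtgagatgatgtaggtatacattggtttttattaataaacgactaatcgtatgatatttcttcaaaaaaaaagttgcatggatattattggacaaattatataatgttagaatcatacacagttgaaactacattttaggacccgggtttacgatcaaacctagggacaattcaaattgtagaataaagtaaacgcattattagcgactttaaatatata
IAA19, chr3:5263751-5264000: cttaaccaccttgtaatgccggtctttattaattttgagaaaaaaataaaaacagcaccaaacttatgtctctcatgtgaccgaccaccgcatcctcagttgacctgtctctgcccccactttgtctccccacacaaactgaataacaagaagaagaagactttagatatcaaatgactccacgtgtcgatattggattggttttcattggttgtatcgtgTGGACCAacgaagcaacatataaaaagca
In windows from 250 bases before to 50 after the start, TGGNCC was held on either strand by 31.1% of the 17699 loci with a window, by 29.5% of those called higher and by 21.5% of those called lower. A match is a description and not a binding site, and no match says only that these letters are not in this window.

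**Figure D3:**
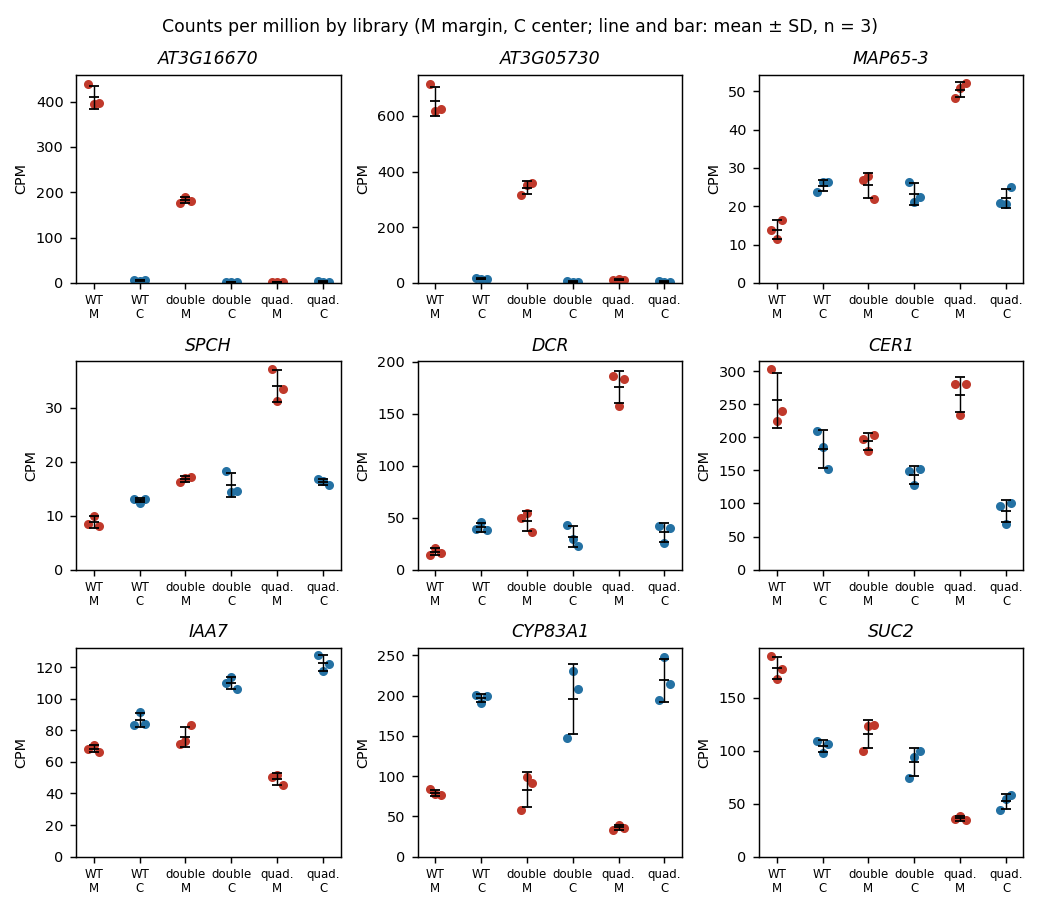
CPM of 9 genes in each library, with M for margin, C for center, WT for Col-0, 1 dot per library and the line and bar for mean ± SD (n = 3). AT3G16670 and AT3G05730 are high in the margins of Col-0 and the double mutant alone, MAP65-3, SPCH and DCR are highest in the quadruple margin, and IAA7, CYP83A1 and SUC2 are lowest there.

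Genes of mitosis and cytokinesis were the list with the most calls. Of 35 tested, 20 were called higher and none lower, 34 had an interaction above 0, and the median was 0.88 against 0.0038 over all loci. Over all loci 1.43% were called higher and 1.47% lower. Their median margin to center difference was 0.90 in the quadruple mutant, 0.06 in the double mutant and -0.73 in Col-0. Quadruple against double, the median difference was 0.85 in the margin and -0.06 in the center. The sum over the list was 920 to 1080 CPM in the quadruple margin, 454 to 573 in its center, 483 to 596 in the double margin and 453 to 646 in the double center, so that the quadruple margin lay above the other 3 groups, which overlapped. Beside it, the sum was 332 to 363 CPM in the Col-0 margin and 553 to 634 in its center. With the pool as a block 30 of 35 were called, against 11.3% of all loci. Left out singly, quadruple center 2 gave 9 calls, double center 1 and quadruple margin 3 gave 10 each, double margin 2 and quadruple center 1 gave 12 each, and double margin 3 gave 13.

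MAP65-3, which bundles microtubules at the site where the new cell wall forms, was at 48.3, 50.8 and 52.1 CPM in the quadruple margin, 20.8, 20.5 and 24.9 in the quadruple center, 26.8, 27.8 and 21.8 in the double margin and 26.3, 21 and 22.3 in the double center. All quadruple margin libraries were above every other mutant library, and the other 3 groups overlapped. The margin to center difference was 1.2 in the quadruple and 0.16 in the double mutant, and the interaction was 1.04 ± 0.15 (adjusted p = 0.000813). KN, the syntaxin KNOLLE that fuses vesicles at the cell plate, was at 91.1, 99 and 108 CPM in the quadruple margin, 45.1, 36.1 and 49.6 in the quadruple center, 58, 48.3 and 44.9 in the double margin and 64.3, 47 and 42.4 in the double center. The quadruple margin was again the only group apart, with an interaction of 1.2 ± 0.18 (adjusted p = 0.000917). KN overlaps the locus AT1G08550, whose reads cannot be told apart from it because the strand of counting is not known.

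The other called members act at several steps of division and were named after their values were seen. Among the cyclins that drive entry into mitosis, CYCB1;2 had an interaction of 1.16, CYCB1;3 of 1.02, CYCB2;3 of 0.98, CYCB2;4 of 0.91, CYCB3;1 of 1 and CYCA1;1 of 0.68. The mitotic kinases CDKB1;2 and CDKB2;1 had 1.09 and 0.80, and the Aurora kinases AUR1 and AUR2, which act on spindle and chromosomes, 1.01 and 1.16. TPX2, a spindle assembly factor, had 1.21, and the kinesins of the dividing wall HIK and PAKRP1L had 1.16 and 1.06. Genes that time the separation of chromosomes were also called, with 0.88 for CDC20.1, 0.93 for CDC20.2, 0.74 for MAD2 and 1.01 for PANS1. MYB3R-4, an activator of mitotic genes, had 0.82. All 20 lay between 0.68 and 1.21.

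MYB3R proteins act through the mitosis-specific activator motif, whose core is CNAACGG, so upstream bases are shown for 5 called mitotic genes that hold it within 150 bases before their start and overlap no other gene there. Capitals mark CNAACGG on either strand. Coordinates are TAIR10.1, and each sequence is read 5′ to 3′ on the gene's own strand.
PAKRP1L, chr3:8518986-8519135, plus strand: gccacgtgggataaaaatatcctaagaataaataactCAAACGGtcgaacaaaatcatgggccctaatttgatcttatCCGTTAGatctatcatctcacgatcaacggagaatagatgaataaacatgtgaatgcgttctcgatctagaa
CYCB1;2, chr5:1861704-1861853, minus strand: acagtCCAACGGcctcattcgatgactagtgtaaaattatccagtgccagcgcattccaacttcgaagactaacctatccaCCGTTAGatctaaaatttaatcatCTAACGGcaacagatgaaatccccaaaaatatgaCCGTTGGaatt
HIK, chr1:6324379-6324528, minus strand: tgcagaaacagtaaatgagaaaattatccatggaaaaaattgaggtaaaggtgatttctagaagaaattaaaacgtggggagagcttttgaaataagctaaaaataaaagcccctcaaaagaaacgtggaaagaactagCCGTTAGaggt
PANS1, chr3:4710333-4710482, plus strand: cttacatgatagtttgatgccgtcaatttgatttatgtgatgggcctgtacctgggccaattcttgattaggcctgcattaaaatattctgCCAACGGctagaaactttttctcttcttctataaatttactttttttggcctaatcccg
CYCB2;3, chr1:7137829-7137978, minus strand: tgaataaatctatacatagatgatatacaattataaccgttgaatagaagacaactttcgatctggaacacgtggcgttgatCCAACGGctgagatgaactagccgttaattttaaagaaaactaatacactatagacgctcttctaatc
CYCB1;2 holds 4 matches in this stretch and PAKRP1L 2. Within the 300-base windows CNAACGG was found on either strand in 6.35% of all 17699 loci, 19.3% of those called higher and 3.07% of those called lower. It was found in 15 of all 35 genes of the mitosis list, in 10 of the 20 called ones and in 16.7% of the 234 loci called higher outside the list. TTCCCGC, the core of the E2F motif, was in 1.64% of all windows and in 13 of 24 of the DNA replication list, 2 of which held CNAACGG. The G-box, spelled CACGTG, was in 8.86% of all windows, 11.4% of those called higher and 8.81% of those called lower, and AAAATATCT, the evening element, in 3.06%, 1.57% and 3.07%. Letters of 1 motif can belong to another, and no test was made of these shares.

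No gene of DNA replication and S phase was called. Of 24 tested 1 had an unadjusted p under 0.05 and DESeq2 called 0, with a median of 0.02 and a range of -0.27 to 0.44, and the highest was CDT1A, a replication licensing factor (adjusted p = 0.136, and 0.0282 with the block). Among 9 D-type cyclins, which carry growth signals into the cell cycle, only CYCD3;2 was called. It was at 95.4, 101 and 99.6 CPM in the quadruple margin, 52.9, 51 and 53.5 in the quadruple center, 71.6, 73 and 65.5 in the double margin and 58.3, 48.2 and 52.2 in the double center. Margin was above center in both mutants without overlap, more so in the quadruple mutant, with an interaction of 0.50 ± 0.094 (adjusted p = 0.00435). The gene overlaps AT5G67265, and with the block 2 of the list were called. None of 11 cell cycle inhibitors was called, 2 had an unadjusted p under 0.05, DESeq2 called 0, the fit with the block called 1 lower and the median was -0.11. Over all 17763 loci 2758 had an unadjusted p under 0.05, and the fit with the block called 11.3%.

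Of the growth regulators of the leaf blade a few were called. ANT, which keeps cells dividing and sets organ size, was at 48.3, 50.6 and 54.8 CPM in the quadruple margin, 27.6, 27.2 and 32 in the quadruple center, 21.9, 23.8 and 19.7 in the double margin and 25, 20.4 and 19.4 in the double center. The quadruple mutant was above the double mutant in both pieces, and by more in the margin, with an interaction of 0.79 ± 0.14 (adjusted p = 0.00324). It was the only 1 called of 8 tested genes of lamina outgrowth, whose interactions were all above 0 with a median of 0.56 and of which 2 were called with the block. In the list of GRF transcription factors and their GIF partners 2 of 10 were called higher, with a median of 0.60 and 4 called with the block. Over all loci 1.43% were called higher, and 4.6% with the block. GRF1 was at 29.4 to 30.6 CPM in the quadruple margin and at 13.1 to 16.9 in the other 9 mutant libraries, so the quadruple margin stood alone (interaction 0.70 ± 0.16, adjusted p = 0.0202). GRF1 overlaps AT2G22850 and was lost without double center 1, quadruple margin 1 or quadruple center 2. GIF1, the coactivator of GRF proteins, was at 4.03, 6.34 and 6.73 CPM there and at 1.15 to 3.17 in the others (1.46 ± 0.39, adjusted p = 0.0433). Its pool differences overlapped, 0.32 to 1.48 in the quadruple and -0.76 to 0.49 in the double mutant. GIF1 was lost without double margin 2 or 3, double center 2 or 3, quadruple margin 2 or 3 or quadruple center 2 or 3. No GRF or GIF gene was called without quadruple center 2, and 1 was called without each of 8 other libraries, double margin 2 and 3, double center 1 and 3, quadruple margin 1, 2 and 3 and quadruple center 3.

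Some genes of the stomatal lineage, the cuticle and the trichomes were called higher, 4 of 14, 6 of 23 and 2 of 9, against 1.43% of all loci. SPCH, the factor that starts the stomatal lineage, was at 37.1, 31.2 and 33.5 CPM in the quadruple margin, 16.7, 16.4 and 15.7 in the quadruple center, 16.2, 17 and 17.1 in the double margin and 18.2, 14.4 and 14.5 in the double center. The quadruple margin was above all 3 other groups, which overlapped, and the interaction was 0.96 ± 0.14 (adjusted p = 0.000743). In Col-0 it was lower in the margin, 8.04 to 10 CPM against 12.4 to 13.1. The 4 of the stomatal lineage were SPCH, its partner ICE1 with 0.31 and the receptors TMM and ER with 0.42 and 0.31, and the median of the 14 was 0.33. With the block 5 were called higher and 1 lower (4.6% and 6.7% of all loci). Without double margin 3, double center 1 or 2, quadruple margin 1, 2 or 3 or quadruple center 2 only 1 was called, and without double margin 1 or 2 or quadruple center 1 it was 2. The 5 markers of mature guard cells went the other way in sign, with a median of -0.55 and none called. Of the 5, 2 had an unadjusted p under 0.05, as had 2758 of all 17763 loci. DESeq2 called none of the 5 markers, and the fit with the block called 1 lower. Their sum was 30.1 to 32.6 CPM in the quadruple margin and 50.5 to 54.9 in the double margin, with 29.2 to 34.3 and 39.3 to 46.1 in the centers.

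DCR, an acyltransferase of cutin synthesis, was at 186, 158 and 184 CPM in the quadruple margin, 42.3, 25.2 and 40.3 in the quadruple center, 49.6, 54.7 and 35.9 in the double margin and 42.7, 29.7 and 22.9 in the double center. The quadruple margin was again the only group without overlap. Its margin to center difference was 2.31 in the quadruple mutant, 0.60 in the double mutant and -1.23 in Col-0, and the interaction was 1.71 ± 0.27 (adjusted p = 0.00144). CER1, which makes the alkanes of leaf wax, was at 280, 234 and 280 CPM in the quadruple margin, 95.9, 69.4 and 101 in the quadruple center, 198, 179 and 204 in the double margin and 149, 128 and 152 in the double center. Both pieces differed here, since the log2 ratio of quadruple to double mutant was 0.45 in the margin and -0.70 in the center, both called. CER1 had an interaction of 1.15 ± 0.19 (adjusted p = 0.0016).

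In all 6 of 23 cutin and wax genes were called higher (1.43% of all loci were) and none lower, with a median of 0.31. The other 4 were ABCG13, a transporter that exports cutin, with 1.53, the cytochromes CYP86A4 and CYP77A6, which hydroxylate cutin acids, with 1.27 and 1.25, and the acyltransferase GPAT6 with 0.70. With the block 10 were called higher, against 4.6% of all loci. Without double center 1 or quadruple center 2 the count was 2, and without double center 2 or quadruple margin 3 it was 3. A further 2 lipid genes, chosen after their values were seen, were among the 10 highest interactions under the conditions on level and pools given above. AT1G06100, of the fatty acid desaturase family, was at 21.9, 16.9 and 19.9 CPM in the quadruple margin and at 0.523 to 2.96 in the other 9 mutant libraries. It stood at 3.2 ± 0.59 (adjusted p = 0.00384) and was lost without double center 1. AT5G33370, a GDSL-like lipase, was at 70.7, 53.9 and 61 CPM in the quadruple margin and at 4.31 to 12 in the other 9, with 2.59 ± 0.37 (adjusted p = 0.000784), and its reads cannot be told apart from those of AT5G33365. In the other direction and also outside the list, DCF, an enzyme of ferulate in cutin, was called lower, with -1.64 ± 0.28. Its mean was 1.95 CPM in the quadruple margin and 11.8 in the double margin.

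Trichomes, the hairs of the epidermis, had 2 of 9 genes called higher (1.43% of all loci were), and the median of the list was 0.62. GL2, a homeobox factor of hair growth, was at 40.3, 36.5 and 35.3 CPM in the quadruple margin and at 12.1 to 17 in the other 9 mutant libraries, which puts the quadruple margin apart from all of them. The interaction was 1.03 ± 0.17 (adjusted p = 0.00175), and the gene overlaps AT1G79850. EGL3, which acts upstream of GL2, had 1.02 ± 0.26 (adjusted p = 0.0348) and was lost without any 1 of 10 of the 12 libraries, all except quadruple margin 1 and 2. The sum over the list was 100 to 107 CPM in the quadruple margin, 55.7 to 64.3 in its center, 65.7 to 68.4 in the double margin and 52.4 to 56.2 in the double center.

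**Figure D4:**
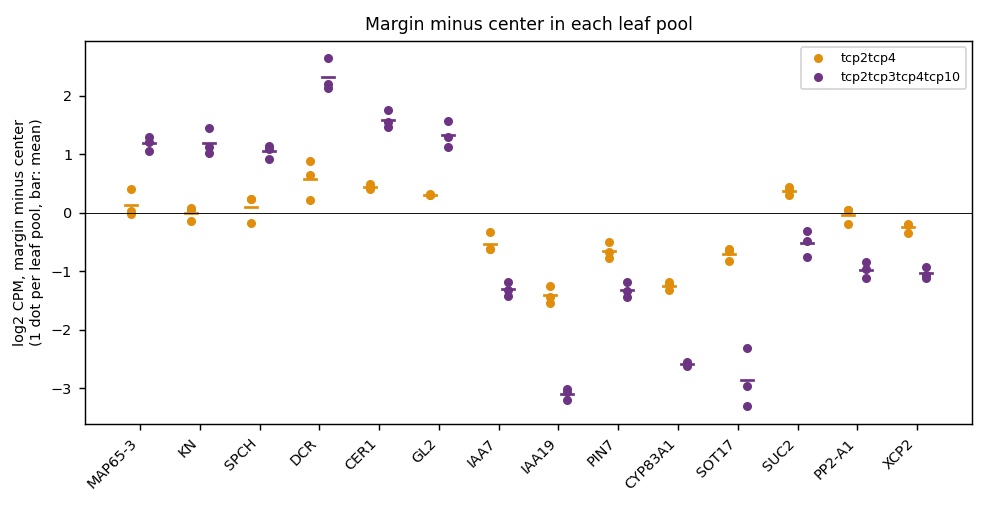
Log2 CPM of the margin minus that of the center (y axis) within each leaf pool, 3 pools of tcp2tcp4 and 3 of tcp2tcp3tcp4tcp10, with a bar for the mean, for 14 genes. The genes were chosen among the called ones, so that their pools do not overlap between genotypes was nearly fixed by the choice. Pools do not overlap in 253 of 254 loci called higher, in all 261 called lower and in 26.2% of all loci. Only in SUC2 do all pools of one genotype have the opposite sign to those of the other.

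Some genes of auxin response were called lower. Of 27 Aux/IAA and GH3 genes, which auxin itself induces and which hold the response in check, 6 were called lower and none higher, with a median of -0.56 and a range of -1.9 to 1.14. Over all loci 1.47% were called lower. IAA7 was at 50.7, 52 and 45.2 CPM in the quadruple margin, 128, 118 and 122 in the quadruple center, 71.4, 73.4 and 83.4 in the double margin and 110, 114 and 106 in the double center. Margin was below center in both mutants without overlap, and the quadruple margin was the lowest group and its center the highest. The interaction was -0.77 ± 0.096 (adjusted p = 0.00022), from differences of -1.31 in the quadruple and -0.53 in the double mutant. IAA19 was at 0.916, 1.1 and 1.16 CPM in the quadruple margin, 9.31, 10.5 and 12.6 in its center, 3.66, 4.46 and 3.48 in the double margin and 11.1, 10.9 and 9.86 in the double center. The centers overlapped and the margins did not, giving -1.9 ± 0.27 (adjusted p = 0.000743).

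IAA16 had -0.81 ± 0.11, with the quadruple mutant lower in the margin and higher in the center, and IAA1, IAA2 and IAA4 had -1.27, -1.17 and -0.53. With the block 10 of the list were called lower and 1 higher (6.7% and 4.6% of all loci). In the fit without the block, leaving out quadruple margin 1 gave 3 called lower. In the SAUR61 to SAUR68 gene cluster, small auxin induced genes of cell expansion, all 6 members tested were below 0 with a median of -1.14. These genes are alike in sequence, and how shared reads were counted was not tested. SAUR63 was at 2.2, 1.86 and 2 CPM in the quadruple margin, 5.29, 5.21 and 5.19 in the quadruple center, 6.79, 7.58 and 6.79 in the double margin and 7.04, 6.79 and 6.04 in the double center. Only the double margin and center overlapped, and the interaction was -1.48 ± 0.31 (adjusted p = 0.0101). SAUR62 was also called, with -1.14 ± 0.27 (adjusted p = 0.023), and 6 were called with the block. Without double margin 2 or quadruple margin 1 SAUR62 was lost.

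Of 14 genes of auxin synthesis and transport the auxin exporters PIN7 and PIN3 were called lower (1.47% of all loci were), and the median was -0.02. PIN7 was at 32.2, 30.1 and 34.7 CPM in the quadruple margin, 82.1, 82.7 and 78.7 in its center, 59.5, 58.6 and 45.6 in the double margin and 84.3, 93.8 and 78.5 in the double center. The margins differed without overlap and the centers overlapped (-0.70 ± 0.13, adjusted p = 0.00368). PIN3 had -0.74 ± 0.17 (adjusted p = 0.0202) and was lost without double margin 3, double center 1, quadruple margin 3 or quadruple center 2. With the block 4 of the list were called lower and 1 higher (6.7% and 4.6% of all loci). TMO5, a factor of early vascular cells downstream of auxin, was the only 1 called of 8 genes of the HD-ZIP III and procambium list, with -0.89 ± 0.19 (adjusted p = 0.0103). TMO5 was lower in the quadruple than in the double mutant in the margin and higher in the center, both called. Its list did not share this direction, with 6 members above 0, 2 below and a median of 0.09. ARF4, an auxin response factor of the lower leaf side, had -0.40 ± 0.1 (adjusted p = 0.0381) and was lost without 10 of the 12 libraries, all except double margin 3 and double center 1. ARF4 was the only 1 called of 9 genes of abaxial identity, of which 5 were above 0 and 4 below, with a median of 0.17. The cell wall loosening gene EXPA8 was the only 1 called of 20 expansin and XTH genes, with -1.02 ± 0.27 (adjusted p = 0.0425), and was lost without any of 9 libraries, that is all but double margin 3, double center 2 and quadruple center 1. With the block 4 of that list were called higher and 4 lower (4.6% and 6.7% of all loci).

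Genes of aliphatic glucosinolate synthesis, the sulfur compounds of mustard defense made from methionine, had the lowest median of all lists, -1.58, with 7 of 12 called lower and 12 of 12 below 0. Over all loci 1.47% were called lower. CYP83A1, which oxidizes aldoximes in the core pathway, was at 32.9, 39.8 and 35.9 CPM in the quadruple margin, 195, 248 and 214 in the quadruple center, 58.3, 99.1 and 91.1 in the double margin and 147, 231 and 208 in the double center. Margin was below center in both mutants, the margins did not overlap and the centers did. Its margin to center difference was -2.6 in the quadruple mutant, -1.25 in the double mutant and -1.32 in Col-0, and the interaction was -1.35 ± 0.22 (adjusted p = 0.00171). SOT17, a sulfotransferase of the last core step, was at 3.57, 3.13 and 2.1 CPM in the quadruple margin, 18.6, 25.9 and 22.9 in its center, 8.48, 17.4 and 15.3 in the double margin and 13.4, 26.8 and 27.4 in the double center. In each pool margin was below center, the margins of the genotypes did not overlap, and double margin and center did, with -2.15 ± 0.37 (adjusted p = 0.0025). In both genes double pool 1 was lower than pools 2 and 3 in both pieces.

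The other called members were MAM1 with -1.53, which extends the methionine side chain, CYP79F1 with -1.77, IMD1 with -1.63, BAT5, the importer of chain precursors into plastids, with -1.67, and SOT18 with -1.15. IMD1 overlaps AT5G14210 and SOT18 overlaps AT1G74088. CYP79F1 was lost without any of 6 libraries, double margin 2 or 3, quadruple margin 1, 2 or 3 or quadruple center 2, and the list had 4 calls without double margin 2. Genes that serve the pathway were also among the 12 lowest interactions of genes that have a symbol and meet the same conditions on level and pools, FMO GS-OX3, which oxidizes the side chain, with -1.81 ± 0.38, IPMI1 with -1.76 ± 0.41 and AKN2, which makes the activated sulfate that SOT enzymes use, with -2.17 ± 0.43. FMO GS-OX3 and BAT5 were lost without double margin 2, and IPMI1 without double margin 2, quadruple margin 1 or quadruple center 2.

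Of 10 genes of indole glucosinolates and camalexin, made from tryptophan, 3 were called lower (1.47% of all loci were), with a median of -0.71 and all below 0. CYP83B1, the aldoxime oxidase of this branch, was at 19.8, 25.1 and 19.6 CPM in the quadruple margin, 23.8, 33.7 and 29.1 in its center, 76.3, 103 and 89.2 in the double margin and 40.3, 73.2 and 59.7 in the double center. Here the quadruple mutant was below the double mutant in both pieces, and double margin exceeded its center in each pool. It had -1.06 ± 0.23 (adjusted p = 0.0113) and was lost without quadruple center 2. UGT74B1, a glucosyltransferase used by both branches, had -1.02 ± 0.19 (adjusted p = 0.00476). With the block 5 were called lower, against 6.7% of all loci. In the fit without the block the count was 5 without double margin 1 and 1 without quadruple center 2.

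Markers of the phloem, the sugar transporting tissue, were called lower in 5 of 11 genes (1.47% of all loci were), with a median of -0.72 and 10 of 11 below 0. SUC2, the sucrose carrier that loads the phloem, was at 35.6, 38.5 and 34.1 CPM in the quadruple margin, 44.2, 54.1 and 57.7 in the quadruple center, 100, 123 and 124 in the double margin and 74, 93.6 and 100 in the double center. Margin was below center in every quadruple pool and above it in every double pool, and the quadruple mutant was lower than the double mutant in both pieces without overlap. The interaction was -0.88 ± 0.15 (adjusted p = 0.0026), from differences of -0.52 and 0.36, with 0.77 in Col-0. PP2-A1, a sieve tube lectin, was at 14.9, 14.6 and 14.1 CPM in the quadruple margin, 27.2, 28.7 and 30.6 in its center, 43.1, 48.8 and 47.9 in the double margin and 42.1, 55.5 and 46.4 in the double center. Both pieces were lower in the quadruple mutant and the margin by more (-0.94 ± 0.14, adjusted p = 0.000813), and the gene overlaps AT4G19830.

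The sieve element proteins SEOR1 and SEOR2 had -0.72 and -0.74, and the callose synthase CALS7, which lines sieve pores, -0.78. With the block 9 of 11 were called lower, against 6.7% of all loci. The sum over the phloem markers was 198 to 227 CPM in the quadruple margin, 326 to 389 in its center, 439 to 494 in the double margin and 406 to 490 in the double center. Of 14 genes of xylem and secondary wall 2 were called lower, with a median of -0.38 and 5 called with the block. Over all loci 1.47% were called lower, and 6.7% with the block. XCP2, a protease of dying xylem cells, was at 33.2, 35.1 and 33.5 CPM in the quadruple margin, 63.6, 74 and 72.9 in its center, 46.3, 50.1 and 48.1 in the double margin and 53.7, 57.3 and 61.3 in the double center. The quadruple margin was the lowest and the quadruple center the highest of the 4 groups, with no overlap among them (-0.79 ± 0.11, adjusted p = 0.000743). LAC4, a laccase of lignin, had -0.73 ± 0.19 (adjusted p = 0.0407) and was lost without any of 8 libraries, namely all but double margin 1, double center 2 and 3 and quadruple center 1. The xylem sum was 106 to 113 CPM in the quadruple margin, 208 to 238 in its center, 130 to 141 in the double margin and 180 to 200 in the double center. What part the amount of vascular tissue in each piece had in any other result was not tested.

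Photosynthesis genes had small interactions of 1 sign. All 26 genes of light harvesting and the photosystems were below 0, between -0.49 and -0.14 with a median of -0.37, and 5 were called, PSAD1 with -0.42, PSAE1, PSAF and PSAG with -0.39 each and PSBP1 with -0.35. PSAE1 and PSBP1 overlap other loci. With the block all 26 were called lower. Over all loci 1.47% were called lower, and 6.7% with the block. Without it the count hung on single libraries: it was 0 without double margin 2 or 3, double center 1 or 2, quadruple margin 1 or 3 or quadruple center 1 or 2, it was 2 without double margin 1, and it was 21 without double center 3 and 23 without quadruple center 3. PSAD1, a photosystem I subunit, was at 1360 to 1540 CPM in the quadruple margin, 1660 to 2060 in its center, 2130 to 2240 in the double margin and 1960 to 2350 in the double center, so that the quadruple margin was the only group apart. The list sum was 83200 to 97400 CPM in the quadruple margin, 97400 to 120000 in its center, 129000 to 141000 in the double margin and 117000 to 143000 in the double center. All 10 genes of Rubisco and the Calvin cycle were below 0 as well, with a median of -0.29. None was called, 7 had an unadjusted p under 0.05 (2758 of all 17763 loci did) and DESeq2 called 1. The fit with the block called all 10 lower, against 6.7% of all loci.

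Flavonoid and anthocyanin genes, which make leaf pigments, were all above 0, with a median of 0.56, and 2 of 9 were called higher (1.43% of all loci were). LDOX, which makes anthocyanidins, was at 13.2, 16.1 and 15.7 CPM in the quadruple margin, 6.03, 4.72 and 2.93 in its center, 1.16, 7.06 and 2.26 in the double margin and 2.29, 13.1 and 3.92 in the double center. Double pool 2 was high in both pieces, and the interaction was 2.47 ± 0.67 (adjusted p = 0.0498). UF3GT, which adds a sugar to anthocyanins, had the same high pool and 1.94 ± 0.53 (adjusted p = 0.0498). In the fit without the block each was lost without any of 9 libraries, all but double margin 2 and double center 1 and 3. Both were also lost with the 12 mutant libraries alone, and LDOX with DESeq2. Within pools the margin to center difference of LDOX was 1.1, 1.72 and 2.33 in the quadruple and -0.86, -0.87 and -0.74 in the double mutant. With the block the adjusted p of edgeR's quasi-likelihood test was 4.1e-10 for LDOX and 6.18e-06 for UF3GT. The block called 6 of the 9 genes higher, against 4.6% of all loci.

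**Figure D5:**
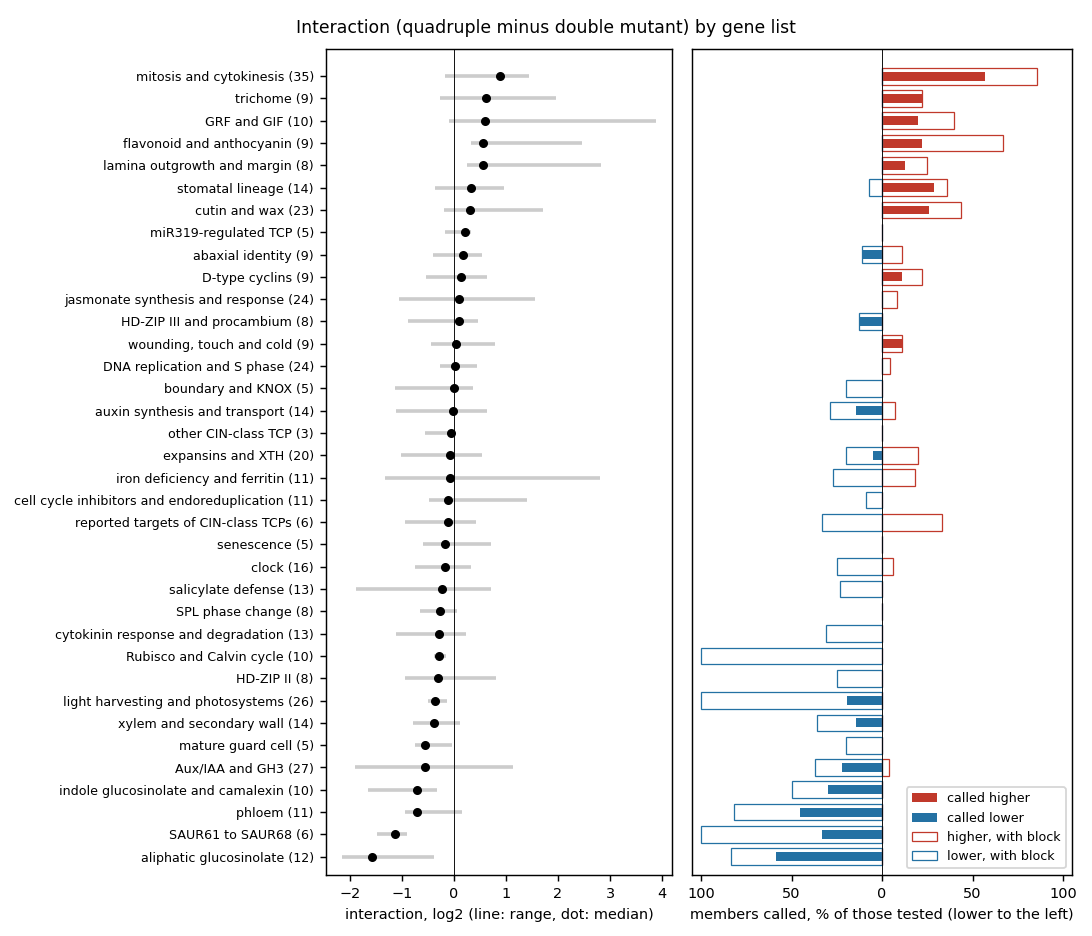
Interaction by gene list, with the number of members tested in brackets: left, range (line) and median (dot) on the log2 scale, and right, the percent of members called higher (right of 0) or lower (left of 0), filled without and outlined with the leaf pool as a block. Mitosis and cytokinesis has the highest median, 0.88, and aliphatic glucosinolate the lowest, -1.58.

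Margin and center differed in opposite directions in the mutants in few genes. Called in the interaction, and in both margin to center comparisons with opposite signs, were 8 loci with a higher and 7 with a lower interaction. Of these, 2 and 4 had a symbol and a highest mutant group mean of at least 5 CPM. NPC3, a phospholipase C, was at 7.24, 6.93 and 6.73 CPM in the quadruple margin, 2.96, 3.74 and 3.99 in its center, 1.52, 1.35 and 1.39 in the double margin and 3.6, 2.82 and 2.44 in the double center. The quadruple margin was highest and the double margin lowest of the 4 groups (1.98 ± 0.36, adjusted p = 0.00356). AGP31, an arabinogalactan protein of the cell wall, had 0.71 ± 0.13 from differences of 0.29 in the quadruple and -0.42 in the double mutant, with -1.36 in Col-0. In the other direction, beside SUC2, the carboxypeptidase SCPL34 had -0.95 ± 0.16, the glutathione transferase GSTU27 -0.56 ± 0.12 and the B-box factor BBX15 -0.33 ± 0.075, each higher in the margin of the double mutant and of Col-0, where their differences were 0.82, 0.45 and 0.30, and lower in that of the quadruple mutant. BBX15 was lost without double center 1.

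Further genes with large interactions belonged to no list. ELI3-1, of the cinnamyl alcohol dehydrogenase family, was at 2.38, 1.86 and 2.84 CPM in the quadruple margin, 2.65, 0.977 and 0.931 in its center, 57.3, 57.1 and 54 in the double margin and 10.6, 9.77 and 10.2 in the double center. The quadruple mutant was far below the double mutant in both pieces, and its margin and center overlapped. Col-0 had 156 to 173 CPM in the margin and 54.4 to 58 in the center, and the interaction was -1.84 ± 0.32 (adjusted p = 0.0025), lost without quadruple center 1. DCF, an enzyme of ferulate in cutin, had -1.64 ± 0.28, the chitinase ChiC -1.65 ± 0.30, the aquaporin PIP2;4 -1.68 ± 0.35 and AT2G46690, a SAUR-like gene chosen after its value was seen, -1.88 ± 0.28.

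On the higher side, the transporter ABCB13 was at 16.2, 15 and 17.5 CPM in the quadruple margin and at 2.13 to 4.46 in the other 9 mutant libraries, so the quadruple margin was alone (1.43 ± 0.26, adjusted p = 0.00324). CYP77A4, which epoxidizes fatty acids, had 1.82 ± 0.33, the cellulase CEL2 1.84 ± 0.43, the acyltransferase GLC 1.59 ± 0.37, the carboxylesterase CXE18 1.45 ± 0.34 and the SET-domain gene SDG35 1.76 ± 0.42. CYP77A4 overlaps AT5G04670 and SDG35 overlaps AT1G26750. BGLU18, a beta-glucosidase that releases abscisic acid, was lower in the margin in both mutants, by -0.76 in the quadruple and -2.51 in the double mutant (1.75 ± 0.42, adjusted p = 0.0245), with double pool 2 high in both pieces. Several of these calls rested on single libraries in the fit without the block. With the block the adjusted p of edgeR's quasi-likelihood test was 1.85e-05 for CEL2, 5e-05 for SDG35 and 4.78e-08 for GLC. It was 0.000733 for CXE18, 4.69e-15 for BGLU18 and 2.09e-05 for ABCG13. In the fit without the block CEL2 was lost without double center 1, quadruple margin 3 or quadruple center 1 or 2, and SDG35 without double margin 1, double center 2, quadruple margin 3 or quadruple center 2. GLC was lost without double center 1 or 2 or quadruple center 2, and CXE18 without double margin 2 or double center 1. BGLU18 was lost without double margin 1 or 3, quadruple margin 2 or 3 or quadruple center 1 or 2. The cutin exporter ABCG13 was lost without double margin 2 or 3, double center 1 or 2, quadruple margin 1 or 3 or quadruple center 1 or 2. RD29A, a cold and drought gene, was the only 1 called of 9 genes of the list of wounding, touch and cold (1.43% of all loci were called higher). That list had 5 members above 0 and 4 below, with a median of 0.03. RD29A was at 109 to 123 CPM in the quadruple margin and at 41 to 66.9 in the other 9 mutant libraries (0.78 ± 0.15, adjusted p = 0.00536). AT1G73620, of the thaumatin superfamily, and AT1G11112, an uncharacterized locus, both chosen after their values were seen, had 1.83 ± 0.23 and 2.59 ± 0.50, the latter lost without double center 1.

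In 16 lists no member was called by edgeR's quasi-likelihood test. Of their 167 members tested 30 had an unadjusted p under 0.05, against 2758 of all 17763 loci. DESeq2 called 2 of the members, and 483 of the 15222 loci to which it gave an adjusted p. Besides those given above, the lists were reported targets of CIN-class TCPs with 6 tested and a median of -0.12, boundary and KNOX genes with 5 and 0.01, HD-ZIP II genes with 8 and -0.30, cytokinin response and degradation with 13 and -0.29, jasmonate synthesis and response with 24 and 0.10, salicylate defense with 13 and -0.23, clock genes with 16 and -0.17, SPL genes of phase change with 8 and -0.27, iron deficiency and ferritin genes with 11 and -0.08 and senescence genes with 5 and -0.17. With the block 11.3% of all loci were called. In the lists just named the block called 4 of the 6 reported targets, 2 higher and 2 lower. It called 1 boundary and KNOX gene, 2 HD-ZIP II, 4 cytokinin, 2 jasmonate and 3 salicylate genes. In the clock and the iron lists it called 5 each, and in the SPL and senescence lists none.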

How the data were processed

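RNA-seq of margin and center pieces of leaf 5 was used from 18 libraries, 3 for each of 6 groups. The authors deposited 1 table of counts, whole reads per locus and not normalized, and per the submitters' processing notes it came from TopHat2 2.0.13 and HTSeq 0.7.2 on TAIR10, with edgeR 3.8.6 also named. Options, the strand setting of the counting and the annotation release are not stated in the labels. Of 33602 loci 9788 had no read, and 97.7% matched RefSeq's TAIR10.1 gene table. The 5 summary rows that name no gene were left out. Over the 12 mutant libraries they included 3.71% to 16% of reads aligned to several places, 0.497% to 1.15% in no feature and 1.38% to 1.55% ambiguous.

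Counts were fitted with edgeR 4.0.16 in R 4.3.3 (TMM scaling, a low count filter that left 17763 loci, quasi-likelihood test, Benjamini-Hochberg adjusted p under 0.05), with all 6 groups sharing 1 estimate of spread. All adjusted p-values in the text are from this fit over 17763 loci unless a block is named, and ± is the SE of the log2 estimate (n = 3 per group). CPM are TMM-scaled, and log2 CPM used a prior count of 2. CPM are not divided by gene length, so levels of different genes were not compared.

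Pairing by leaf pool is given by the labels, and deviations of same-numbered margin and center libraries from their group means correlated at 0.196 to 0.384 in 9 pairs, against -0.238 to 0.0383 in the 18 other pairings (5000 loci, threshold 0.1). The block took the biological coefficient of variation from 7.68% to 3.48%. Pools of plants grown together were the replicates, so p-values cover the spread between such pools only.

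Named genes were the TCP genes with a miR319 site, the 12 called genes with a symbol and the largest interaction in each direction, the 2 called members of each list and direction with the lowest p, and up to 6 in each direction called with opposite signs in the mutants. For all but the TCP genes and list members the highest group mean had to reach 5 CPM, and for the largest interactions the pools of the genotypes could not overlap. The comparison and the 36 lists were chosen with earlier results of these data known. Of 512 list entries 506 matched the reference by symbol and the others were left out, and 444 of the listed loci were tested. Alternatives were the block, DESeq2 1.42.0, RLE scaling, no low count filter, the 12 mutant libraries alone, each of 12 libraries left out in turn, and the block without double pool 3. The fits with 1 library left out did not use the block, so a gene lost without a library was lost in the unpaired fit. The fit was tested on simulated data. Not every sequence that was read is reported here.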

Additional observations from a re-analysis of the deposited data

Results flagged for a closer look

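For each gene below the margin to center difference itself differed between the quadruple and the double mutant by the interaction test of edgeR, and for that reason it is listed with its log2 interaction. All were described above with their values.

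Among loci outside the lists and without a symbol, with at least 5 CPM in 1 mutant group and pools that did not overlap, those with large interactions were AT3G16670 with -6.98, AT2G43590 with -6.24, AT3G05730 with -4.94, AT3G16660 with -4.17 and AT2G46690 with -1.88 on the lower side and, on the higher side, AT1G06100 with 3.2, AT5G33370 with 2.59, AT1G11112 with 2.59 and AT1G73620 with 1.83.

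Genes of division and blade growth had 1.04 for MAP65-3, 1.2 for KN, 0.50 for CYCD3;2, 0.70 for GRF1, 1.46 for GIF1 and 0.79 for ANT. The epidermal and cuticle genes had 0.96 for SPCH, 0.31 for ER, 1.03 for GL2, 1.02 for EGL3, 1.71 for DCR, 1.15 for CER1 and 1.53 for ABCG13. Further higher interactions were 2.47 for LDOX, 1.98 for NPC3, 1.94 for UF3GT, 1.84 for CEL2, 1.82 for CYP77A4, 1.76 for SDG35, 1.75 for BGLU18, 1.59 for GLC, 1.45 for CXE18, 1.43 for ABCB13, 0.78 for RD29A and 0.71 for AGP31.

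Lower interactions in genes of auxin and vascular patterning were -1.9 for IAA19, -0.77 for IAA7, -0.81 for IAA16, -1.48 for SAUR63, -1.14 for SAUR62, -0.70 for PIN7, -0.74 for PIN3, -0.40 for ARF4 and -0.89 for TMO5. In sulfur and glucosinolate metabolism they were -2.17 for AKN2, -2.15 for SOT17, -1.81 for FMO GS-OX3, -1.77 for CYP79F1, -1.76 for IPMI1, -1.67 for BAT5, -1.63 for IMD1, -1.35 for CYP83A1, -1.02 for UGT74B1 and -1.06 for CYP83B1. The vascular markers had -0.88 for SUC2, -0.94 for PP2-A1, -0.74 for SEOR2, -0.79 for XCP2 and -0.73 for LAC4. The remaining values were -1.84 for ELI3-1, -1.68 for PIP2;4, -1.65 for ChiC, -1.64 for DCF, -1.02 for EXPA8, -0.95 for SCPL34, -0.56 for GSTU27, -0.42 for PSAD1, -0.39 for PSAF and -0.33 for BBX15.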

How the results depend on the processing

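With the leaf pool as a replicate block the paired fit called 2008 loci, 817 higher and 1191 lower, 364 of them at least 2-fold, and it lost none of the 515. Without double pool 3, an alternative added after seeing the data, the blocked counts were 1756, 712, 1044 and 332. Leaving out 1 library at a time gave 269 to 658 calls in all, 129 to 295 higher, 140 to 382 lower and 96 to 236 at least 2-fold. Counts within 1.5 times of 515 came from DESeq2 with 483, RLE scaling with 552, no low count filter with 648 and the 12 mutant libraries alone with 412. The higher share of calls was 49.3% in the fit reported and 40.7% to 48.8% in these 4 and the block, and RLE scaling moved the median of all loci to -0.0111. Of 59 named genes that were called, 33 were called in all 18 alternatives, 26 were lost without at least 1 library, 12 in at least 1 other alternative, and 0 changed direction. Those lost in another alternative were LDOX, UF3GT, BGLU18, ABCG13, CYP79F1, GIF1, ARF4, PSAD1, PSAF, LAC4, ER and EGL3. Among the genes not called, TCP2 ranged from -0.19 to 0.00 and TCP3 from -0.18 to 0.43 with 1 library left out. The causes of these shifts were not tested. The median SE was 0.167, and what part of it depth had was not tested. TCP3 was at under 5 CPM in every library.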

Other observations

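Water channels of the cell membrane, a list chosen after values were seen, were called in both directions. Of 13 aquaporins tested 2 were called higher, PIP2;5 with 0.57 and PIP2;8 with 0.61, and 5 lower, PIP1B with -0.32, PIP1;5 with -0.56, PIP2B with -0.66, PIP2;4 with -1.68 and PIP2E with -0.53, and the median was -0.31. PIP2E was at 129, 132 and 126 CPM in the quadruple margin, 272, 258 and 261 in its center, 189, 183 and 207 in the double margin and 253, 277 and 288 in the double center. The margins did not overlap and the centers did (-0.53 ± 0.084, adjusted p = 0.00144). The blocked fit called 3 higher and 7 lower. Over all loci 1.43% were called higher and 1.47% lower, and with the block 4.6% and 6.7%. PIP2;4 is counted here and among the genes with the lowest interactions above, so the counts of this list were partly fixed by its choice.

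Genes of sulfate uptake and assimilation, also listed after values were seen, were called lower in 6 of 14 tested and higher in none, with a median of -0.36 and a range of -2.47 to 0.42. They were the sulfate carrier SULTR1;2 with -2.47, the ATP sulfurylase APS3 with -0.88, the APS kinases APK and AKN2 with -1.06 and -2.17, the APS reductase APR1 with -0.94 and LSU2, a gene that responds to low sulfur, with -0.98. SULTR1;2 had few reads, with means of 0.774 CPM in the quadruple margin, 1.15 in its center, 2.38 in the double margin and 0.67 in the double center. These are below the 5 CPM asked of the largest interactions above. The blocked fit called 9 lower. Over all loci 1.47% were called lower, and 6.7% with the block. AKN2 is counted here and among the genes with the lowest interactions above, so the counts of this list too were partly fixed by its choice.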
